A study of Drosophila melanogaster with 24 samples.

Results

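The actin gene family of Drosophila melanogaster was followed in RNA-seq libraries of ovaries and testes. All 6 genes of the family were taken by matching their symbols to the gene identifiers of the count files, so 6 of 15406 counted genes are described. Act5C and Act42A encode the cytoplasmic actins, and Act57B, Act79B, Act87E and Act88F encode the muscle actins. The rule uses the symbols alone.

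Actin monomers assemble into filaments that carry myosin motors, shape the cell cortex and drive membrane movement. In the female germline, actin lines the ring canals that join sister cells and fills the nurse cells with cables before they empty into the oocyte. In the male germline it forms the cones that separate sperm tails from each other. Gonads also hold muscle, in the sheath around the ovarioles and in the sheath around the testis, where actin filaments slide along myosin in sarcomeres. In adult flies Act88F is the actin of the indirect flight muscles and Act79B that of tubular muscles such as those of the legs, whereas Act57B and Act87E are known from body wall muscle.

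The 24 libraries form 12 groups of 2, and per the labels the 2 libraries of a group came from independent dissections. In ovaries, XX females with the temperature-sensitive allele pair tra2ts1 and tra2ts2 in a w1118 background (tra2ts) were compared with w1118 females. In testes, XY males with a UAS-Tra.F transgene, tubP-GAL4 and tubP-GAL80ts (TraF) were compared with males that carried tubP-GAL4 and tubP-GAL80ts alone (Control). The tubP promoter is active in most cells, so the transgene was not limited to a gonadal cell type, and the labels give the TraF males a y1 w* background that they do not give the Control males. All flies were raised at 18 °C, aged for 5 days and held at the restrictive temperature for 0, 12 or 24 h. In the extraction text of the labels this is 29 °C where ovaries are described and 30 °C where testes are, whereas the treatment text names 29 °C alone, so the temperature of the testis groups is uncertain. The shift turns off tra2 function in tra2ts females and turns on Tra.F in TraF males, and with these the isoform of the sex determination factor DSX is meant to switch. Egg chambers of stage 10 and older were discarded at dissection, so the ovary libraries come from younger egg chambers. Each library sums over all cells of the dissected organ, so fewer cells of a type and less RNA per cell cannot be told apart.

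Libraries held between 16136939 and 32782474 counts in genes. Expression of tra, which the testis transgene encodes, was 21.1 and 25.5 CPM in TraF testes at 0 h and 239 to 313 CPM at 12 and 24 h, against 5.85 to 12.1 CPM in Control testes over all times. Counts per gene cannot show the tra2 point alleles. The tissue labels fit several marker genes. The sperm genes dj, Mst84Da, ProtA and ProtB had 0 counts in all 12 ovary libraries and at least 30.0 CPM each in every testis library, and the vitelline membrane gene Vm26Aa reached at least 4865 CPM in ovaries and at most 0.214 CPM in testes. Some listed markers went the other way by median level. Of the germline lists, orb (ovary) stood at 394 CPM in ovaries and 797 CPM in testes, and bam (testis) at 21.5 and 8.47 CPM. Of the somatic lists, Fas3 (follicle cells) stood at 40.4 and 52.7 CPM and zfh1 (testis soma) at 28.8 and 21.0 CPM. The gene tj, on both somatic lists, stood at 160 and 4.66 CPM. In accessory gland markers a single library stood apart: the Control testis library at 12 h numbered replicate 1 held 2786 CPM of 7 accessory gland markers, against at most 14.4 CPM in any other testis library. The sum of 5 fat body markers also varied among testis libraries, from 93.9 to 656 CPM in TraF and from 104 to 487 CPM in Control, and was highest at 24 h in both genotypes. That variation lay mainly in Cyp4g1, which ranged from 0.904 to 548 CPM in testes. The others varied less, at 17.6 to 37.0 CPM (Lsp2), 10.7 to 16.3 (Yp3), 51.3 to 76.7 (apolpp) and at most 0.0908 (Fbp1).

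Levels are given as CPM, the count of a gene per unit of sequencing depth, with TMM factors to scale between libraries. Where genes are compared with each other, CPM was divided by the exonic length, which is 2978 bases for Act5C (FBgn0000042, arm X), 1626 for Act42A (FBgn0000043, arm 2R), 1724 for Act57B (FBgn0000044, arm 2R), 1619 for Act79B (FBgn0000045, arm 3L), 1989 for Act87E (FBgn0000046, arm 3R) and 1595 for Act88F (FBgn0000047, arm 3R). Each of the genes has 1128 coding bases, which is 37.9% of the exonic length in Act5C and 70.7% in Act88F. The proteins are near-identical, and how reads that fit more than 1 actin gene were counted is not given in the sources used here, so every value is uncertain to the extent that such reads were split or lost. The exons of Act57B overlap snoRNA:660 by 96 bases, and those of Act87E overlap lncRNA:CR45591 by 60 bases.

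Differences were called at an adjusted p under 0.05 (quasi-likelihood test of edgeR, Benjamini-Hochberg over all genes tested). The SE beside a log2 fold change is its standard error in that fit.

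Ovaries and testes differed first in which actin genes they used. Taking the CPM per kb of all 6 genes as 100%, the cytoplasmic actins made up 78.7% to 97.0% in ovaries (median 90.2%, n = 12) and 63.3% to 78.9% in testes (median 68.6%, n = 12). Act5C alone held 57.9% to 80.0% in ovaries and 30.4% to 42.5% in testes. Act42A held 17.0% to 20.8% in ovaries and 33.0% to 37.6% in testes, so the ranges of both cytoplasmic genes were apart between the tissues. Among the muscle actins Act57B held 2.83% to 20.6% in ovaries and 3.08% to 9.88% in testes. Act87E held 0.140% to 0.864% in ovaries and 17.9% to 27.8% in testes. It was the main muscle actin of every testis library and a minor transcript in every ovary library. Summed over the 6 genes, actin counts were 0.340% to 0.517% of all gene counts in ovaries and 0.278% to 0.390% in testes.

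**Figure D1:**
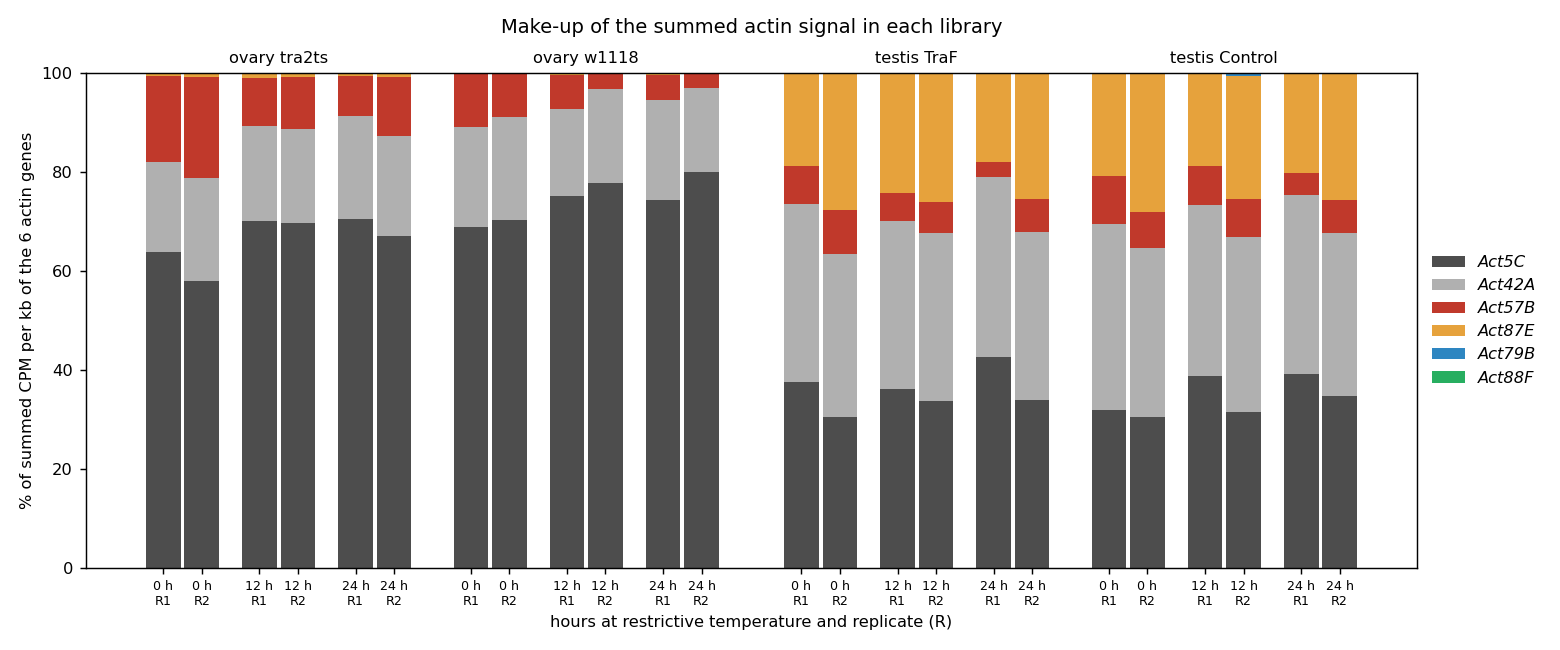
Stacked bars, 1 per library, of the share (%) of each actin gene in the summed CPM per kb of the 6 genes, by tissue, genotype, hours at the restrictive temperature and replicate. Act5C fills 57.9% to 80.0% of the ovary bars, whereas the testis bars hold Act5C and Act42A at similar heights and 17.9% to 27.8% of Act87E.

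The order of the genes per kb followed the tissue. In the 6 ovary groups the order was Act5C, Act42A, Act57B, Act87E, Act88F and Act79B. Neighbours in that order did not overlap between their libraries, except Act42A and Act57B in tra2ts at 0 h and Act88F and Act79B in tra2ts at 24 h. In the 6 testis groups Act5C and Act42A led with means of 488 to 662 and 519 to 623 CPM per kb, and their libraries overlapped in 4 of 6 groups. Act87E followed with group means of 365 to 388 CPM per kb, then Act57B with 81.6 to 138, Act79B with 2.31 to 6.48 and Act88F with 0.131 to 0.317. The ratio of Act5C to Act42A per kb needs no scaling between libraries, and it was 2.79 to 4.70 in ovaries (median 3.58) and 0.846 to 1.17 in testes (median 1.02).

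**Figure D2:**
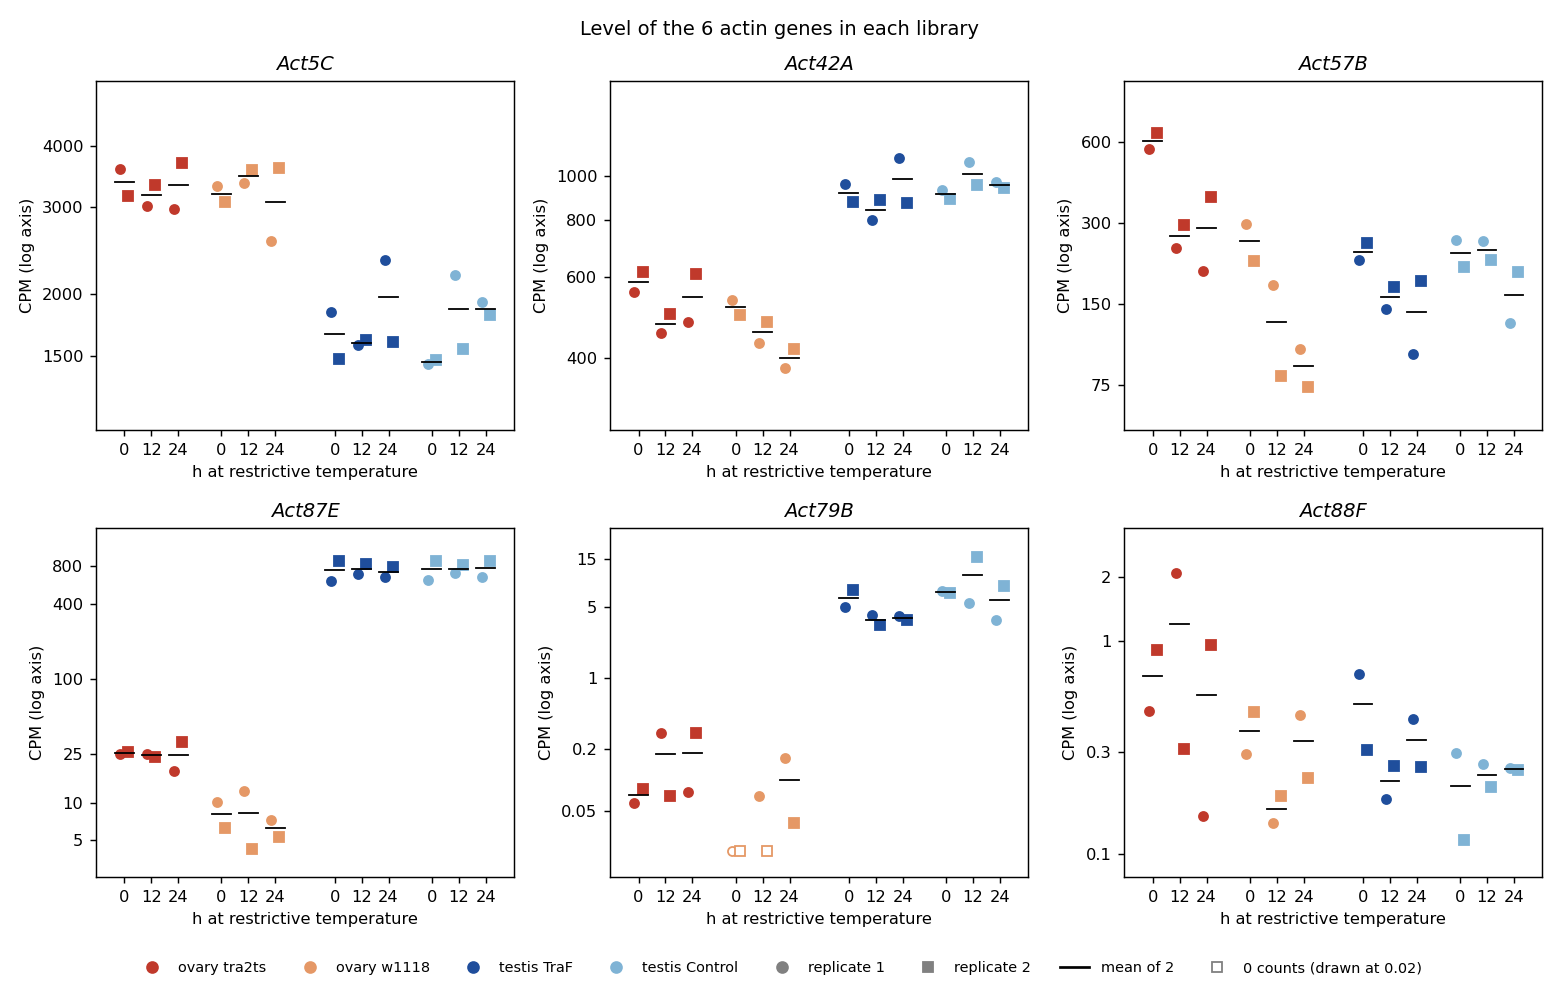
CPM (log axis) of each actin gene in every library, by tissue, genotype and hours at the restrictive temperature; circles are replicate 1, squares replicate 2, bars the mean of 2, and open symbols libraries with 0 counts drawn at the foot of the axis. Act87E sits between 608 and 891 CPM in testes and between 4.30 and 30.8 CPM in ovaries.

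The comparison of ovary with testis shows how far apart the gonads of the 2 sexes are, with tissue, sex and stock confounded. Most genes differ here: 92.4% of the 12411 genes tested were called over the mean of all groups, and 80.1%, 81.6% and 82% between the unmanipulated genotypes, w1118 ovaries and Control testes, at 0, 12 and 24 h. The median of all genes was itself shifted, to a log2 fold change of -0.77 with TMM scaling and -1.10 with RLE scaling, so the values over all groups are also given relative to that median, with TMM scaling unless RLE is named.

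Act5C, the more abundant cytoplasmic actin, was higher in ovaries. Its lowest, median and highest levels were 2564, 3328 and 3689 CPM in ovaries and 1442, 1606 and 2342 CPM in testes, and the tissues did not overlap. The log2 fold change over all groups was 0.92 (edgeR adjusted p = 5.52e-08, SE 0.0970), which is 1.69 above the median gene. Between w1118 ovaries and Control testes it was 1.14, 0.89 and 0.72 at 0, 12 and 24 h, with an adjusted p of at most 0.00987 by edgeR. The 24 h call was lost with RLE scaling (log2 fold change 0.40, adjusted p = 0.127), with DESeq2 (0.0747) and without replicate 2 of w1118 (0.0809) or of Control (0.0520).

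Act42A was lower in ovaries, at 381, 488 and 618 CPM (lowest, median, highest) against 803, 936 and 1093 CPM in testes. Again the tissues did not overlap. Its log2 fold change was -0.93 (edgeR adjusted p = 7.45e-10, SE 0.0722), and this is 0.16 below the median gene, so Act42A differed about as much as the median gene did. That median is no neutral reference, since 6823 of the 12411 genes were called lower in ovaries and 4639 higher. Act42A was also called lower between w1118 ovaries and Control testes at all 3 times, with log2 fold changes of -0.82, -1.16 and -1.26, which are -0.09, -0.35 and -0.42 relative to the median gene.

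Act87E differed more than any other actin gene with measurable counts in both tissues. It stood at 4.30, 15.3 and 30.8 CPM in ovaries (lowest, median, highest) and 608, 748 and 891 CPM in testes. Its log2 fold change was -5.79 (edgeR adjusted p = 2.01e-15, SE 0.189), or -5.01 relative to the median gene, and it lay between -6.93 and -6.51 when w1118 ovaries were set against Control testes at single times. Within testes, the library numbered replicate 2 held more Act87E than replicate 1 in 6 of 6 groups, by 1.17 to 1.46 times, while the genotypes overlapped at each time.

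Act79B, the tubular muscle actin, had 0 to 8 counts per ovary library and 77 to 299 counts per testis library. In CPM this was at most 0.292 in ovaries and 3.32 to 15.5 in testes, with a median of 5.29 in testes. It was called lower in ovaries over all groups (log2 fold change -6.57, or -5.80 relative to the median gene, adjusted p = 8.32e-12 by edgeR) and at each time between the unmanipulated genotypes. At 0 h both w1118 libraries had 0 counts, so Act79B was at least 119-fold lower there than in Control testes, taking 3 counts over the group as the floor.

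Act57B and Act88F were not called between the tissues over all groups. Act57B, the main muscle actin of the ovary, ranged from 73.8 to 649 CPM in ovaries and from 98.3 to 259 CPM in testes. The log2 fold change was 0.25 (edgeR adjusted p = 0.117, SE 0.15) and -0.08 with RLE scaling, so its direction depends on the scaling. Relative to the median gene Act57B stood at 1.02 with TMM and 1.03 with RLE scaling. Between w1118 ovaries and Control testes Act57B was called lower at 12 h (-0.89, adjusted p = 0.0350 by edgeR) and at 24 h (-0.89, 0.0362) and was not called at 0 h (0.14, 0.729). Both of those calls were lost without a filter on low counts (0.0531 and 0.0548) and with a replicate block (0.0894 and 0.123), and without w1118 replicate 2 of the time concerned the adjusted p was 0.393 at 12 h and 0.238 at 24 h. Leaving out single Control libraries also lost them, with an adjusted p of 0.134 (12 h replicate 1), 0.0524 (12 h replicate 2) and 0.287 (24 h replicate 2). Relative to the median gene Act57B was at 0.87, -0.08 and -0.05 at 0, 12 and 24 h.

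Act88F, the flight muscle actin, was near the limit of detection everywhere, with 4 to 58 counts in ovary libraries and 3 to 13 counts in testis libraries. Its log2 fold change between ovaries and testes was 0.71 (edgeR adjusted p = 0.0787, SE 0.372), or 1.48 relative to the median gene. Without tra2ts replicate 1 at 24 h it was 0.85 and passed (0.0265), and without tra2ts replicate 2 at 12 h it was 0.89 and passed (0.0157). Act57B likewise passed with 0.32 (0.0448), 0.37 (0.0190) and 0.34 (0.0402) without tra2ts replicate 1 at 24 h, w1118 replicate 2 at 12 h or TraF replicate 2 at 24 h.

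The clearest difference between genotypes lay in the muscle actins of the ovary. The comparison of tra2ts with w1118 asks what the loss of tra2 function does after the shift, and at 0 h it shows how the stocks differ before it. At 0 h Act57B measured 564 and 649 CPM in tra2ts ovaries, against 297 and 218 CPM in w1118 ovaries. At 12 h it was 242 and 295 CPM in tra2ts and 176 and 81.4 CPM in w1118. The 24 h values were 199 and 375 CPM in tra2ts and 102.4 and 73.8 CPM in w1118. At each time both tra2ts libraries lay above both w1118 libraries.

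Averaged over the times, Act57B was 2.53-fold higher in tra2ts ovaries, a log2 difference of 1.34 (SE 0.249) between 6 libraries and 6, with an adjusted p of 0.0158 by edgeR. Over all genes 4.02% were called in this comparison, and 2 of the 5 actin genes tested. The call of Act57B was lost by a small margin without tra2ts replicate 2 at 0 h (0.0558) or 12 h (0.0540) and without w1118 replicate 2 at 0 h (0.0513) or 24 h (0.0514).

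Act87E was the other called gene. In tra2ts ovaries it stood at 24.9 and 25.8 CPM at 0 h, 24.8 and 23.5 CPM at 12 h and 18.2 and 30.8 CPM at 24 h. The w1118 ovaries had 10.2 and 6.27 CPM at 0 h, 12.4 and 4.30 CPM at 12 h and 7.37 and 5.31 CPM at 24 h. Every tra2ts library lay above every w1118 library. The log2 fold change over the times was 1.70 (edgeR adjusted p = 0.00878, SE 0.278), which is 3.25-fold, and it stayed called in 17 of 17 alternatives, between 1.51 and 2.02.

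At single times 0 of 5 actin genes were called by edgeR, where 0.273%, 0.387% and 0.535% of all genes were called at 0, 12 and 24 h. At an unadjusted p under 0.05 stood Act57B and Act87E at each time, and Act88F at 12 h. Act57B had log2 fold changes of 1.22, 1.08 and 1.72 and Act87E of 1.60, 1.54 and 1.96 at these times, so values of this size were present at 0 h, before the shift. At 24 h Act57B and Act87E were called by DESeq2 (adjusted p = 0.00801 and 0.00700) and by edgeR without a filter on low counts (0.0461 and 0.0342).

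The cytoplasmic actins were not called. Act5C stood at 2971 to 3689 CPM in tra2ts ovaries and 2564 to 3597 CPM in w1118 ovaries, with a log2 fold change over the times of 0.02 (SE 0.142, adjusted p = 0.994 by edgeR). Act42A stood at 453 to 618 CPM in tra2ts and 381 to 535 CPM in w1118, with 0.24 (SE 0.128, adjusted p = 0.515). Act88F had 0.151 to 2.09 CPM in tra2ts and 0.140 to 0.463 CPM in w1118, where 58 counts in tra2ts replicate 1 at 12 h made the highest value, and its log2 fold change of 1.46 (SE 0.596) was not called (adjusted p = 0.284). Act79B passed no filter in ovaries, and without a filter it was not called (adjusted p = 0.335).

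Other sarcomere genes were also higher in tra2ts ovaries. Of 17 tested genes of the sarcomere list 8 rose and 0 fell in tra2ts ovaries over the times, with a median log2 fold change of 1.06 against 0.00 over all genes. The share called over all genes was 4.02% in this comparison. The 8 include Mlc2, the muscle myosin regulatory light chain (1.62), TpnC73F, a troponin C (1.36), Mlc1, the muscle alkali light chain (1.32) and Zasp66, a Z-disc protein (1.24). Mhc, the muscle myosin heavy chain, averaged 153 CPM in tra2ts and 69.2 CPM in w1118. The summed level of 9 muscle sheath markers, which are all on the sarcomere list too and of which 0 were at 0 in any library, was 708 to 1448 CPM in tra2ts ovaries and 441 to 768 CPM in w1118 ovaries, and 6 of 9 were called higher. No actin gene is among these markers. Tm1 alone held 257 to 373 CPM of the sum in ovary libraries, whereas Mhc ranged from 35.4 to 261 CPM. A low sum was thus largely Tm1, and the ratios to the sum depend on it. Where an actin gene follows the other markers, its ratio to this sum rises with muscle content. A higher ratio therefore does not show more actin per muscle content, and ratios without Tm1 were not computed. The level of Act57B equalled 28.1% to 46.9% of that sum in tra2ts ovaries (median 35.8%) and 15.6% to 38.6% in w1118 ovaries (median 24.2%). That of Act87E equalled 1.78% to 3.30% in tra2ts (median 2.58%) and 0.916% to 1.91% in w1118 (median 1.23%). Pooled over the times these ranges overlap between the genotypes for both genes. At each single time both tra2ts libraries lay above both w1118 libraries, for Act57B with 46.9% and 44.8% in tra2ts against 38.6% and 31.8% in w1118 at 0 h, 32.2% and 32.5% against 27.1% and 18.5% at 12 h, and 28.1% and 39.1% against 21.3% and 15.6% at 24 h. The same held for Act87E, with 2.08% and 1.78% in tra2ts against 1.33% and 0.916% in w1118 at 0 h, 3.30% and 2.59% against 1.91% and 0.975% at 12 h, and 2.57% and 3.21% against 1.54% and 1.13% at 24 h. Hemocyte markers also moved, with 4 of 5 tested higher in tra2ts and a summed level of 25.4 to 67.4 CPM in tra2ts against 4.33 to 18.1 CPM in w1118. Up to 1 of the 6 matched hemocyte markers was at 0 in a tra2ts library, and up to 2 in a w1118 library. The sum lay mainly in Pxn, with an ovary median of 16.3 CPM, against 3.29 CPM for Hml. The medians of NimC1, He, eater and Sr-CI were at most 0.600 CPM. The part of muscle and hemocyte content in the actin difference was not tested, and these ratios cannot decide it.

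**Figure D3:**
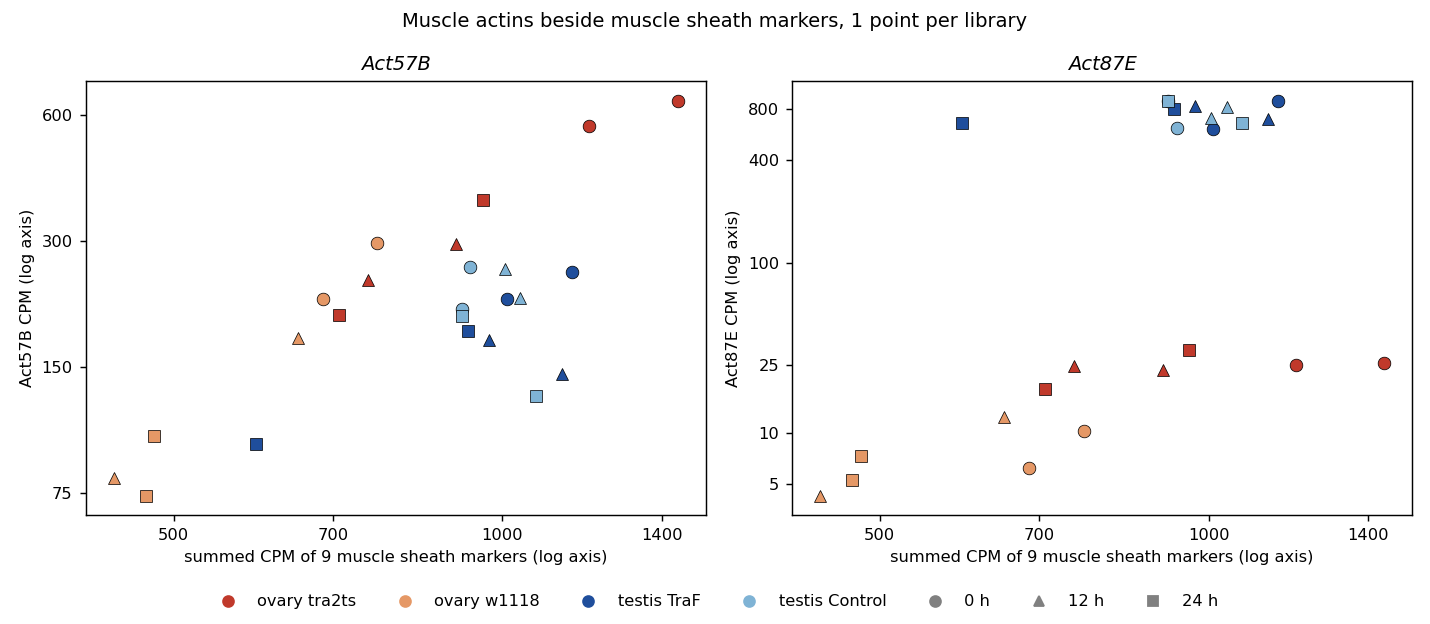
Act57B (left) and Act87E (right) CPM against the summed CPM of 9 muscle sheath markers in each library, both on log axes; colours give tissue and genotype, shapes the hours at the restrictive temperature. Ovary libraries with more marker signal have more Act57B, and the testis libraries hold 608 to 891 CPM of Act87E at marker sums of 595 to 1159 CPM.

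Set against each other per kb, which needs no scaling between libraries, Act87E was 3.45% and 3.83% of Act57B in tra2ts at 0 h and 6.91% to 8.89% at 12 and 24 h, against 2.5% and 2.98% at 0 h and 4.57% to 6.24% later in w1118. In testes the same ratio was 207% to 579%.

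The warm shift, the 12 h or 24 h groups of both genotypes against those at 0 h, went with less Act57B in ovaries. No group was kept at the raising temperature for 12 or 24 h, so warmth, elapsed time and age cannot be told apart. The shifted groups also include tra2ts ovaries, in which the shift turns off tra2 function. At 24 h Act57B was 73.8 to 375 CPM in the 4 ovary libraries, against 218 to 649 CPM in the 4 libraries at 0 h, a difference of -1.28 on the log2 scale (SE 0.304), called with an adjusted p of 0.0491 by edgeR. At 12 h the libraries held 81.4 to 295 CPM, and the log2 fold change of -1.10 (SE 0.303) was not called by edgeR (adjusted p = 0.0910), but was by DESeq2 (0.00860). Of all genes 2.32% were called at 12 h and 3.9% at 24 h, and of 5 actin genes 0 and 1. The call at 24 h lies at the threshold: it was lost with a replicate block (0.0594), in a fit of the compared groups alone (0.0796) and in 7 of 8 fits that left out a compared library (0.0514 to 0.173). It held without tra2ts replicate 2 at 24 h.

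Some sarcomere genes were lower as well. At 24 h 4 of 17 were lower, namely TpnC73F (-1.69), Obsc, the giant sarcomere protein obscurin (-1.57), Tm2, a muscle tropomyosin (-1.30) and Mhc (-1.29), with a list median of -1.03 against 0.02 over all genes. The muscle sheath markers summed to 472 to 960 CPM at 24 h and 685 to 1448 CPM at 0 h, and 2 of 9 were called lower. The part of muscle content in the fall of Act57B was not tested. Act87E was not called at 24 h, with 5.31 to 30.8 CPM, against 6.27 to 25.8 CPM at 0 h, and a log2 fold change of -0.19 (edgeR adjusted p = 0.811, SE 0.333). Act5C (-0.02, adjusted p = 0.979) and Act42A (-0.22, 0.506) were not called at 24 h either.

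The switch comparison sets how tra2ts or TraF changed after 0 h against how its control genotype changed. It takes in any genotype difference that arose after the shift. It is not limited to the DSX isoform change, which counts per gene do not show. In ovaries 0% of genes were called at 12 h and 0% at 24 h, and 0 of 5 actin genes. At an unadjusted p under 0.05 there were 58 and 117 genes, with 0 actin genes among them, and DESeq2 called 1 gene at each time, again no actin gene. For Act57B the values were -0.14 (SE 0.598) at 12 h and 0.50 (SE 0.599) at 24 h, and for Act87E -0.05 (SE 0.663) and 0.36 (SE 0.666). Act5C stood at -0.17 (SE 0.347) and 0.07 (SE 0.347), and Act42A at -0.09 and 0.29 (SE 0.312 at both times). In Act57B and Act87E the SE was larger than the value at both times, so a difference of that size was not detectable here.

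In testes no actin gene was called between the genotypes by edgeR. Over the times 5.36% of genes were called between TraF and Control testes, and 1.08%, 1.05% and 1% at 0, 12 and 24 h, against 0 of 5 actin genes tested in each case. At an unadjusted p under 0.05 stood Act79B alone, at 12 h and over the times. Act5C stood at 1478 to 2342 CPM in TraF testes and 1442 to 2182 CPM in Control testes (log2 fold change over the times 0.02, SE 0.129, adjusted p = 0.961 by edgeR). Its highest values came from TraF replicate 1 at 24 h and from the Control library rich in accessory gland transcripts. Act42A stood at 803 to 1093 CPM in TraF and 892 to 1071 CPM in Control (-0.06, SE 0.0919, adjusted p = 0.795).

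Act87E was at similar levels in both genotypes. It measured 608 and 891 CPM in TraF testes at 0 h, 700 and 830 CPM at 12 h and 657 and 795 CPM at 24 h. The Control testes had 619 and 891 CPM at 0 h, 702 and 819 CPM at 12 h and 657 and 887 CPM at 24 h. The log2 fold change over the times was -0.03 (edgeR adjusted p = 0.956, SE 0.136).

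Act57B stood at 98.3 to 252 CPM in TraF testes and 128 to 259 CPM in Control testes, with -0.25 (SE 0.163, adjusted p = 0.473 by edgeR). For Act79B the TraF libraries held 5.05 and 7.39 CPM at 0 h, 4.18 and 3.32 CPM at 12 h and 4.09 and 3.77 CPM at 24 h. The Control libraries held 7.18 and 6.87 CPM at 0 h, 5.53 and 15.5 CPM at 12 h and 3.75 and 8.14 CPM at 24 h. At 12 h both TraF libraries lay below both Control libraries, while at 0 and 24 h the genotypes overlapped. The log2 fold change at 12 h was -1.48 (SE 0.454, edgeR adjusted p = 0.223). Over the times it was -0.74 (SE 0.260, edgeR adjusted p = 0.151). DESeq2 called the 12 h difference (0.0437). Without the Control library rich in accessory gland transcripts, replicate 1 at 12 h, edgeR called both, with -2.05 (0.0261) and -0.93 (0.0162), and the partner that then stands alone at 12 h is the one with 15.5 CPM. Some gut markers were lower in TraF testes, with 3 of 6 tested called over the times and a summed level of 3.58 to 44.0 CPM in TraF against 27.1 to 140 CPM in Control. The amylase genes Amy-p and Amy-d reached 90.2 and 47.7 CPM in testes. Every other listed gut gene had a median of at most 1.02 CPM there. The part of gut markers in the Act79B values was not tested. Act88F, with 3 to 13 counts per library, passed no filter in testes and without a filter was not called over the times (adjusted p = 0.587).

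In testes too, no group was kept at the raising temperature for 12 or 24 h, so warmth, elapsed time and age cannot be told apart. The shifted groups include TraF testes, in which the shift turns on Tra.F. After the warm shift 3.53% of genes were called in testes at 12 h and 12.2% at 24 h, and 0 of 5 actin genes. Act57B came closest: the 4 libraries at 24 h held 98.3 to 198 CPM, against 207 to 259 CPM at 0 h. The ranges did not overlap, and its log2 fold change of -0.64 (SE 0.201) had an adjusted p of 0.0640 by edgeR. It was the only actin gene at an unadjusted p under 0.05 there, and it passed with DESeq2 (0.0124), with a replicate block (0.0393) and without TraF replicate 2 at 24 h (0.0248). Fat body markers summed to 232 to 656 CPM in the libraries at 24 h and 105 to 219 CPM in those at 0 h, 1 of 4 tested called higher (Cyp4g1) and 1 lower (Lsp2), and their part in the Act57B values was not tested. Act5C (0.30, SE 0.158, adjusted p = 0.269), Act79B (-0.47, 0.400), Act42A (0.07, 0.746) and Act87E (-0.01, 0.984) were not called. At 12 h Act57B had -0.28 (SE 0.20, 0.569), and no actin gene had an unadjusted p under 0.05. In the testis switch 0.00828% of genes, which is 1 gene, was called at each time, and 0 of 5 actin genes, with log2 fold changes from -1.32 (Act79B) to 0.02 (Act87E) at 12 h and from -0.43 (Act79B) to -0.00 (Act42A) at 24 h. No actin gene had an unadjusted p under 0.05 in the testis switch, and DESeq2 called 4 genes at 12 h and 3 at 24 h with 0 actin genes among them.

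**Figure D4:**
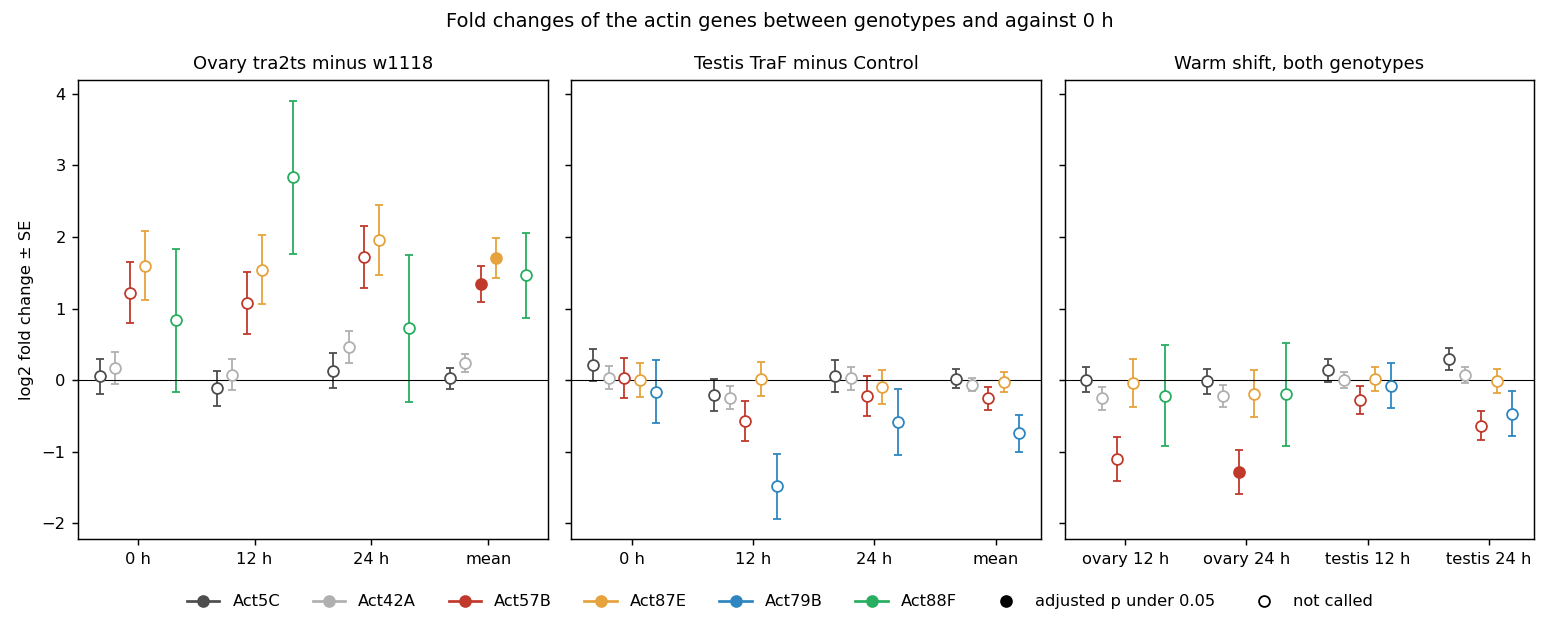
Log2 fold changes with SE of the actin genes that passed the filter, for tra2ts minus w1118 ovaries, TraF minus Control testes and the warm shift (12 h or 24 h minus 0 h); filled points have an adjusted p under 0.05. Act57B (1.34) and Act87E (1.70) are filled for the mean of the times in ovaries, and Act57B (-1.28) for the ovary warm shift at 24 h.

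Effects in the ovary were also set against those in the testis, in comparisons added after the data were seen. The warm shift of ovaries minus that of testes called 2.76% of genes at 12 h and 4.75% at 24 h, and 0 of 6 actin genes by edgeR and by DESeq2. At an unadjusted p under 0.05 stood Act57B at 12 h and Act79B at 24 h. For Act57B it was -0.82 at 12 h and -0.68 at 24 h (SE 0.368 at both times, edgeR adjusted p = 0.302 and 0.381). The genotype effect of ovaries minus that of testes called 4.88% of genes and 2 of 6 actin genes, Act57B (1.60, SE 0.302, adjusted p = 0.00390) and Act87E (1.73, SE 0.313, 0.00273). Act79B and Act42A had an unadjusted p under 0.05 and were not called by edgeR. For Act79B, with 0 to 8 counts in ovary libraries, the difference was 3.03 (SE 0.920, edgeR adjusted p = 0.0767), and it was called in 4 of 29 alternatives: with DESeq2 (0.0162) and without tra2ts replicate 1 at 24 h (0.0492), w1118 replicate 1 at 12 h (0.0497) or Control replicate 1 at 12 h (0.0445). For Act42A it was 0.30 (SE 0.143, edgeR adjusted p = 0.347). The 2 genotype effects come from different stocks, alleles and transgenes and take in 0 h, so tissue, stock and manipulation cannot be told apart.

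Genes whose products work on actin were called between the tissues in both directions, as were genes in general: 92.4% of all genes tested were called, 4639 higher and 6823 lower in ovaries. The counts of the lists lie around that share and are no result about the lists. Of 13 tested genes of filament turnover 8 were higher and 4 lower in ovaries than in testes, with flr, an Aip1 homologue that speeds disassembly (2.76), and capt, the cyclase-associated protein (1.92), among the higher. Nucleation genes split into 8 higher and 9 lower of 19. The formin capu averaged 33.5 CPM in ovaries and 746 CPM in testes (-4.50), and wash, an Arp2/3 activator, 43.6 CPM in ovaries and 590 CPM in testes (-3.76). In the list of bundling and cortex genes 10 were higher and 4 lower of 16, led by Actn, the alpha-actinin (2.24), and Moe, the ERM protein that ties actin to the membrane (2.23). Among nonmuscle myosin genes 7 were higher and 3 lower of 11. The myosin VI jar (-2.18) and the myosin V didum (-1.91) were lower in ovaries, and the kinase Rok was higher (2.03).

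Among actin-related genes 5 were higher and 2 lower of 7 in ovaries, and Arp53D, a divergent actin-related gene of the male germline, had at most 0.0350 CPM in ovaries and 270 to 353 CPM in testes. The SRF homologue bs was higher in ovaries (2.43), while its cofactor gene Mrtf was not called. For sarcomere genes 3 were higher and 12 lower of 19, with sls, the titin-like gene, at 13.4 CPM in ovaries and 192 CPM in testes. Of the flight muscle list 0 were higher and 4 lower of 4, and these genes are low in ovaries, where their sum was at most 1.39 CPM. Most were low in testes too, with at most 0.559 CPM of fln, 1.70 of TpnC4 and 0.994 of TpnC41C. Only salm was higher there, at 15.4 to 39.2 CPM. These list medians were 0.36 (turnover), -0.07 (nucleation), 0.47 (bundling and cortex), 0.58 (myosins), 1.13 (actin-related) and -0.71 (sarcomere), beside -0.77 over all genes. Between tra2ts and w1118 ovaries over the times, 0 tested genes of the turnover, nucleation, bundling, myosin, actin-related, SRF and flight muscle lists were called, and between TraF and Control testes 0 genes of these lists and of the sarcomere list. After the warm shift at 24 h the turnover gene twf, twinfilin, was higher in ovaries (0.58, adjusted p = 0.0432 by edgeR).

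The genes whose levels ran most like an actin gene, by Pearson's r of log2 CPM over the 12 libraries of a tissue, are given as a description, since the libraries share depth and make-up. In ovaries the 5 most like Act57B were Tm2 (0.98), up, the troponin T gene (0.98), Mlc1 (0.98), Prm, the paramyosin gene (0.98) and Neurochondrin (0.97). In testes they were Mlp84B, a muscle LIM protein gene (0.95), Mlc2 (0.94), FBgn0020439 (0.93), Mf, the myofilin gene (0.93) and Prm (0.89). So 4 of 5 are sarcomere genes in each tissue. Act87E had other company: Ras64B (0.95), CG11700 (0.95), CG5096 (0.94), CG4408 (0.94) and FBgn0034367 (0.93) in ovaries, and Glut3 (0.97), FBgn0031912 (0.96), CG4198 (0.95), S-Lap1, a sperm leucyl aminopeptidase gene (0.95), and CG2964 (0.95) in testes.

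For the cytoplasmic genes the closest in testes were Chd64 (0.96), udt (0.96), Inx2, an innexin (0.94), cib, an actin-binding beta-thymosin gene (0.92), and Qsox1 (0.92) for Act5C, and Cdc42 (0.91), Gdi (0.91), Rab5 (0.87), CG7872 (0.87) and His3.3B (0.87) for Act42A. In ovaries they were FBgn0026170, Rpn10, Spp, Hel25E and CG3803 for Act5C (0.90 to 0.92), and FBgn0020766, Pomp, Chd64, sad and CG30491 for Act42A (0.91 to 0.94). Chd64, a calponin-domain protein gene that binds actin, was thus among the 5 closest to Act5C in testes and to Act42A in ovaries. The values for the scarce genes were lower, at 0.83 to 0.88 for Act79B in testes (CG31337, CCDC151, CG30431, CG12104 and CG2701) and 0.75 to 0.79 for Act88F in ovaries (dah, nod, Tpt, Tps1 and Nadk1b).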

How the data were processed

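The 12 ovary and 12 testis libraries were made from total RNA and sequenced single-end, per the labels' protocols. The deposited values are raw read counts per gene. Per the submitters' processing notes the authors used TopHat 1.4.1, HTSeq and the dm3 build; the HTSeq version, its strand setting and the treatment of reads that fit several places are not given in the sources used here. The 5 summary lines of each file stayed out of all totals, and reads in no gene were 1.07% to 2.48% of a library.

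Members and gene lists were chosen with earlier results of these data known. Of 15406 identifiers 14732 were matched to a symbol and an exonic length in an Ensembl annotation of a later assembly, from which no coordinates are given. No actin sequences were compared.

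Counts were fitted with edgeR 4.0.16 (R 4.3.3, limma 3.58.1): filterByExpr by group, TMM factors, the quasi-likelihood test on group means, and Benjamini-Hochberg adjustment over all genes tested (8784 in ovaries, 12083 in testes, 12411 in the fit of all 24 libraries), with a threshold of 0.05. The edgeR procedure was also run on simulated counts with the same dispersion for all genes and changes planted only in well-counted genes. Genes at low counts, such as Act88F, and a shift of most genes between tissues were not covered by it. P-values set a difference against the spread between libraries of a group, which are independent dissections per the labels. That spread was estimated over all groups of a fit and moderated over genes. The tests treat all libraries as independent. Levels are CPM; likeness used log2 CPM with a prior count of 1 among genes of at least 1 CPM. The alternatives were RLE scaling, no filter, DESeq2 1.42.0, a replicate block, a robust prior, the compared groups only and leaving out each library, and for levels the longest transcript and library size alone. All 6 actin genes are described; of the lists, up to 4 called genes per comparison were named, by size of change and at least 1 CPM in a compared group. Other genes of the lists were named after their values were seen. Some list symbols found no match.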

Additional observations from a re-analysis of the deposited data

Results flagged for a closer look

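For Act57B and Act87E the genotype effect differed between the tissues, by a test of that difference in the fit of all 24 libraries that was added after the data were seen. The effect of tra2ts against w1118 in ovaries minus that of TraF against Control in testes was 1.60 on the log2 scale for Act57B (SE 0.302, adjusted p = 0.00390 by edgeR), with Act57B higher by 1.34 in tra2ts ovaries (SE 0.249) and at -0.25 in TraF testes (SE 0.163). For Act87E the difference was 1.73 (SE 0.313, adjusted p = 0.00273 by edgeR), with 1.70 in tra2ts ovaries (SE 0.278) and -0.03 in TraF testes (SE 0.136). Both were called in 29 of 29 alternatives, with an adjusted p of at most 0.0141 for Act57B and 0.0106 for Act87E. The genotype effects are means over the times and take in 0 h, before the shift. At 0 h the log2 fold change in ovaries was 1.22 for Act57B and 1.60 for Act87E, neither called. Tissue, sex, stock and type of manipulation cannot be told apart in this comparison.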

How the results depend on the processing

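Every called fold change of an actin gene kept its sign, in 362 of 362 alternatives. Of the fold changes under alternatives, 1770 stayed on the same side of the threshold, 22 crossed to being called and 26 lost the call; Act57B accounts for 11 and 22 of these. The number of actin genes called between tra2ts and w1118 ovaries at 24 h was 2 without a filter and 2 with DESeq2, in place of 0. For the ovary warm shift at 12 h it was 1 without a filter, 1 with DESeq2 and 1 with the compared groups only, in place of 0, and at 24 h it was 0 with a replicate block and 0 with the compared groups only, in place of 1. For TraF against Control testes at 12 h it was 1 with DESeq2, and for the testis warm shift at 24 h it was 1 with DESeq2 and 1 with a replicate block, in place of 0. Leaving out single libraries gave 3 to 5 called actin genes between w1118 ovaries and Control testes at 24 h, 0 to 1 for the ovary warm shift at 24 h, 1 to 2 between tra2ts and w1118 over the times, 0 to 1 for the testis warm shift at 24 h, and 0 to 1 between TraF and Control at 12 h and over the times. DESeq2 called 629 genes between tra2ts and w1118 over the times and 856 in the ovary warm shift at 24 h, against 353 and 343 by edgeR. Whether the replicate numbers pair the libraries is not given by the labels. Same-numbered deviations correlated at over 0.1 in 12 of 15 pairs of groups in ovaries (median 0.18, lowest -0.49, highest 0.43) and in 11 of 15 in testes (median 0.20, lowest -0.00, highest 0.39). The main tests did not take the numbers as pairing, though most pairs correlated and a shared source of same-numbered libraries is not excluded. A replicate block moved the count of all called genes most in the following comparisons, with 717 genes against 426 for the testis warm shift at 12 h, 195 against 127 for TraF and Control testes at 12 h, 557 against 342 for the warm shift of ovaries minus that of testes at 12 h, and 2 against 1 for the testis switch at 24 h. Library size alone moved 21 of 72 group levels and the longest transcript 8 of 72 shares by more than the SD. Depth limits Act79B in ovaries and Act88F in both tissues. The planned description of shared sequence was not run. The cause of these changes was not tested.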
